A study of Mus musculus with 12 samples.

Results

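Serpins are a family of protease inhibitors that trap their target enzyme in a covalent complex, and the plasminogen activators are among their targets. Of 19938 genes with a probe set annotated to a single symbol, 49 were taken by name: 46 whose symbol begins with Serpin, apart from Serpinh1 and Serping1, and the genes Plat, Plau and Plaur. Ascending aorta was taken at an age of 6 weeks and its RNA hybridised to 12 whole-transcript microarrays, 3 in each of 4 groups. All mice carried Tgfbr2f/f, floxed alleles of the type II TGF-beta receptor gene, and Myh11-CreERT2, a Cre recombinase under a smooth muscle promoter that acts only after tamoxifen. Mice of the knockout groups received 1 mg tamoxifen i.p. on each of 5 days, beginning at 4 weeks, where the control groups received the corn oil vehicle. The 4 groups were Fbn1 wild-type control, Fbn1 wild-type knockout, Fbn1 mutant control and Fbn1 mutant knockout, where mutant mice were Fbn1C1039G/+, carrying 1 copy of an allele of fibrillin-1 that models Marfan syndrome in mice. Each comparison of knockout with control was therefore also one of tamoxifen with its vehicle, and cells that do not use the Myh11 promoter were not targeted.

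The plasminogen system turns plasminogen into plasmin, a protease that dissolves fibrin and also cuts matrix proteins and activates metalloproteases. Plat encodes tissue-type plasminogen activator, Plau the urokinase-type activator and Plaur the receptor that holds urokinase at the cell surface. Secreted serpins restrain these activators, plasmin itself, clotting enzymes and proteases from leukocyte granules, whereas the serpins of clade b stay largely inside cells. Serpine2, which encodes a secreted inhibitor of thrombin and of the activators, was not analysed here.

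The 12 arrays were alike in overall signal, with median intensities from 301 to 334. Log2 values correlated at 0.995 to 0.997 for arrays of the same group and at 0.991 to 0.996 for arrays of different groups. All 9 smooth muscle markers lay above the limit for testing, a mean log2 intensity of 7.31, and their summed intensity varied little, between 108409 and 113527. Tgfbr2 itself did not differ clearly between knockouts and controls. With wild-type Fbn1 controls averaged 11.95 ± 0.01 on the log2 scale (SD, n = 3) and knockouts 11.87 ± 0.08 (exact two-sided permutation p = 0.2), and with mutant Fbn1 it was 11.99 ± 0.04 and 12.03 ± 0.05 (exact permutation p = 0.3), where 0.1 is the smallest p that 3 arrays against 3 allow. The position of its probes relative to the floxed exons was not examined, so "knockout" is the label's name for the group. Nothing in the labels ties each array to an animal of its own, and the p-values speak only of variation among these arrays, which may be technical.

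Of the 49 genes, 18 passed the limit for testing and 31 did not. Those tested were Plat, Plau and Plaur, 3 of 15 serpins of clade a, 6 of 24 of clade b, the single members of clades c, d and e (Serpinc1, Serpind1 and Serpine3), both of clade f (Serpinf1 and Serpinf2) and 1 of 2 of clade i (Serpini1). The 31 dim genes had mean log2 levels between 4.43 and 6.77, and the arrays give no detection call for them. Each of the 49 was read by 1 probe set, and another 5 probe sets that name several genes of the Serpina1 or Serpinb9 groups were left out. Serpina3n, Serpinb9, Serpinb9b, Serpinb6a and Serpinb6b lie in clusters of related gene copies, and whether their probes also read a copy was not examined. In whole tissue, fewer cells of a type and less RNA per cell cannot be told apart either.

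Sequence before the transcription start is shown for the 4 serpins that moved in both knockout comparisons, from the RefSeq promoter table of build GRCm38.p6. Of the 49 genes, 41 had an entry there. For Serpina3n, whose level changed most with wild-type Fbn1, and for Serpini1, the only gene of the 49 that fell in both, the stretch ends before the annotated gene begins, and capitals mark matches to a pattern like that bound by NF-kB, 3 G, any 5 bases and 2 C, on either strand. The Serpina3n stretch, chr12:104406458-104406645 on the plus strand, and the Serpini1 stretch, chr3:75557243-75557492 on the plus strand, read 5′ to 3′:
Serpina3n: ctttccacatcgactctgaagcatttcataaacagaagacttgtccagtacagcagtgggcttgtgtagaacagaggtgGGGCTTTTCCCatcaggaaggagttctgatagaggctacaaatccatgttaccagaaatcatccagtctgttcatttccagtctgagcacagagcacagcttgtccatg
Serpini1: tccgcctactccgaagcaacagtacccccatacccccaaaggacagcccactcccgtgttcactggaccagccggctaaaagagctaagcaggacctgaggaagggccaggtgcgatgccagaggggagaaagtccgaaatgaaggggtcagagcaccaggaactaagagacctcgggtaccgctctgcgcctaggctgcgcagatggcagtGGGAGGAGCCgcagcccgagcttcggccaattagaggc

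Serpinb9 and Serpinb9b are neighbouring copies of 1 ancestral gene, and sequence before the table's start is shown because both were higher in knockouts. The start in the promoter table lies inside the wider RefSeq gene span of Serpinb9, which also covers other transcripts, so positions of Serpinb9 refer to the table's start. The 250 bases before the 2 starts were identical at 154 of 226 aligned positions (68.1%). The longest run they share, 13 bases, begins 60 bases before the start of Serpinb9 and 64 before that of Serpinb9b, and is in capitals in these stretches of 30 bases, chr13:33004473-33004502 and chr13:33027342-33027371, both on the plus strand:
Serpinb9: gcacagcgAAAACTCCTGCTActttcactt
Serpinb9b: acacagcaAAAACTCCTGCTAttttccctt

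Over the full 250 bases and both strands, 4 patterns were searched: TTCNNNGAA (STAT), TGANTCA (AP-1), CAGACA (SMAD) and the NF-kB pattern. Serpina3n and Serpini1 held none of the first 3, and neither did Serpinb9 or Serpinb9b. The NF-kB pattern matched 4 times in Serpina3n, as 2 overlapping pairs of which the one farther from the start, 171 bases before it, lies in the printed stretch. It matched once each in Serpini1 and Serpinb9b and in 13 of the 41 promoters, and is common, being present in 45.4% of 27018 promoters of that length. STAT patterns were in 4 of the 41 promoters (7.18% of all), AP-1 patterns in 10 (6.87% of all) and SMAD patterns in 7 (17.1% of all). These matches describe letters only.

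Where Fbn1 was wild-type, 5 of the 18 tested genes rose in the knockout and 1 fell. The secreted inhibitor Serpina3n rose 3.27-fold and the intracellular serpin Serpinb9 rose 1.37-fold, while Serpini1, which encodes neuroserpin, an inhibitor of tissue-type plasminogen activator, fell by 0.69 on the log2 scale. The 5 include Serpinb9b, whose controls lay under the limit for testing, so that it was tested only because its knockouts were high. Of all 14944 genes tested, 18.8% passed in this comparison. Knockouts and controls did not overlap for 8 of the 18, against 35.8% of all genes. The median log2 difference of the 18 was 0.13 against -0.01 over all genes tested, and over all 49 without a limit on the level it was 0.04 against -0.01.

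**Figure D1:**
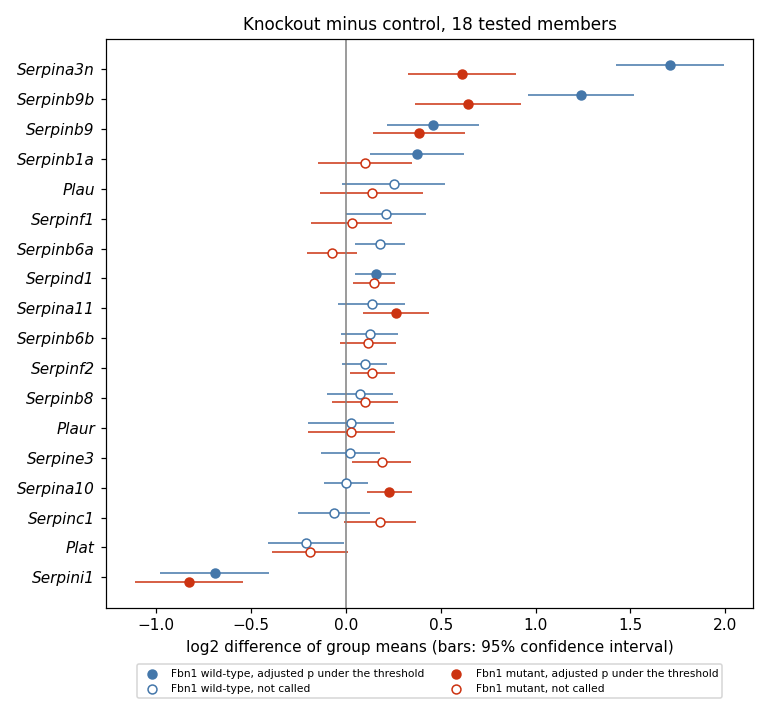
Log2 differences of knockout minus control (horizontal axis) for the 18 tested genes (vertical axis) in Fbn1 wild-type and Fbn1 mutant aorta. Points are limma estimates from 3 arrays per group, bars are 95% confidence intervals, and filled points have an adjusted p under 0.05. Serpina3n reached 1.71 in the wild-type and 0.61 in the mutant, and Serpini1 lay at -0.69 and -0.83.

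Serpina3n is a counterpart of human alpha-1-antichymotrypsin, known as an acute-phase protein and an inhibitor of serine proteases of leukocyte granules. Its log2 level was 11.62, 11.54 and 11.36 in wild-type controls 1 to 3 and 13.27, 13.30 and 13.08 in wild-type knockouts 1 to 3. The lowest knockout lay far above the highest control. In the mutant it was 12.07, 11.55 and 12.08 in controls and 12.62, 12.34 and 12.57 in knockouts, again without overlap, with mutant control 2 at the level of the wild-type controls. The rise was 1.71 ± 0.13 (limma SE; adjusted p = 6.9e-06) in the wild-type and 0.61 ± 0.13 (adjusted p = 0.0111) in the mutant. The rise in the mutant was thus smaller by 1.10 ± 0.19 on the log2 scale (95% confidence interval of the difference -1.50 to -0.70, limma adjusted p = 0.0126), and Serpina3n was the only one of the 18 to pass that test, which 1.48% of all genes passed, 1.08% downward.

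Serpini1 went the other way. Its log2 level was 10.47, 10.70 and 10.16 in wild-type controls 1 to 3 and 9.88, 9.67 and 9.71 in wild-type knockouts, and 10.18, 10.34 and 10.19 in mutant controls and 9.30, 9.25 and 9.68 in mutant knockouts. Knockout arrays lay under all controls of their genotype, and mutant knockout 3 was the least lowered. The gene fell by 0.69 ± 0.13 with wild-type Fbn1 (limma adjusted p = 0.00312). With mutant Fbn1 it fell by 0.83 ± 0.13 (adjusted p = 0.00225). The difference between these effects was -0.13, with a 95% confidence interval from -0.54 to 0.27. Both calls held under all 23 alternative settings, with adjusted p-values of at most 0.0199.

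Serpinb9, an intracellular inhibitor of granzyme B, had log2 levels of 10.18, 10.05 and 10.22 in wild-type controls 1 to 3 and 10.43, 10.54 and 10.85 in wild-type knockouts, a rise of 0.46 ± 0.11 (limma adjusted p = 0.0132). In the mutant the levels were 10.22, 10.24 and 10.17 in controls and 10.65, 10.79 and 10.36 in knockouts, a rise of 0.39 ± 0.11 (limma adjusted p = 0.0392). In both genotypes the controls lay close together and the knockouts were spread. The wild-type call ended without wild-type control 2 (adjusted p = 0.0541) or wild-type knockout 3 (0.0549). The mutant call was less firm and ended in 11 of 23 alternatives, among them leaving out wild-type control 1, any mutant control, or mutant knockout 1 or 2, with adjusted p-values of up to 0.162.

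Serpinb9b, the copy next to it, read 7.08, 6.96 and 7.22 in wild-type controls 1 to 3 and 8.16, 8.29 and 8.53 in wild-type knockouts, and 7.20, 7.08 and 7.21 in mutant controls and 7.90, 8.04 and 7.48 in mutant knockouts. All 6 control arrays lay under the limit of 7.31 and all 6 knockout arrays above it, so the gene entered the tests only through the groups where it was high and had to differ. The values are given as a description: the difference was 1.24 ± 0.13 in the wild-type and 0.64 ± 0.13 in the mutant. Among knockouts, both above the limit, the mutant lay lower by 0.52 ± 0.13 (limma adjusted p = 0.0338). That call was lost in several alternatives, with adjusted p-values of up to 0.128. Among them were leaving out wild-type knockout 2 or 3 or mutant knockout 1 or 3, and fitting only the groups compared (0.0807). The test of the difference between the 2 knockout effects did not pass (-0.60 ± 0.18, limma adjusted p = 0.135).

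**Figure D2:**
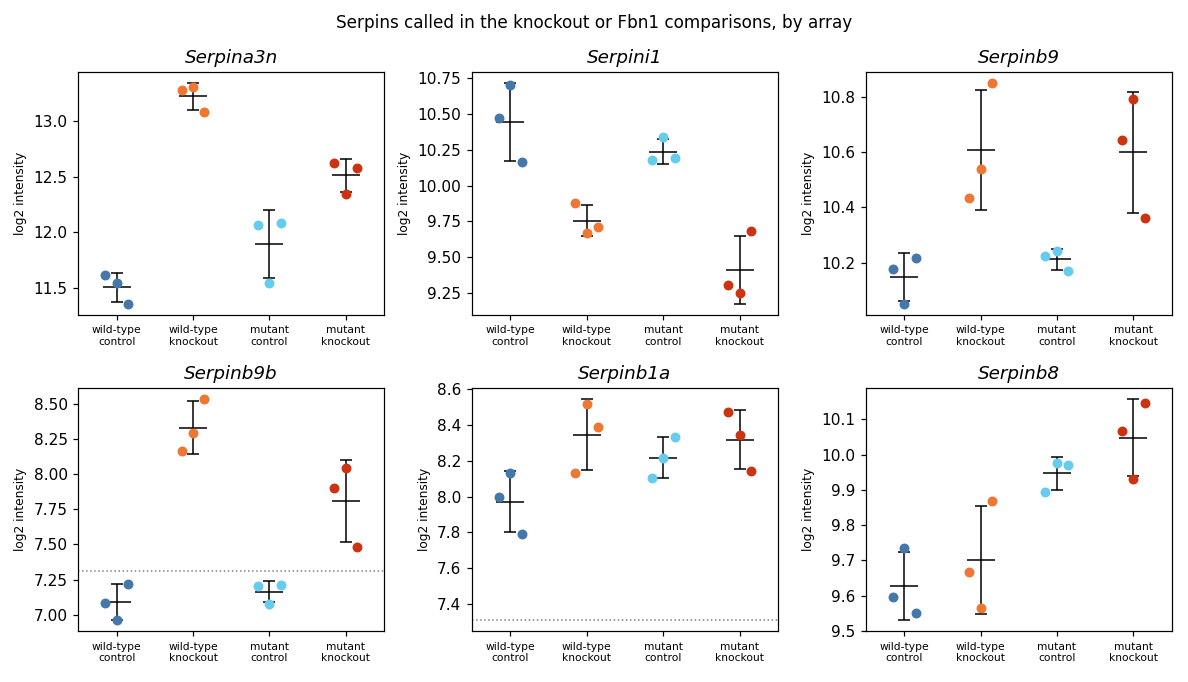
Log2 intensity (vertical axes, a scale of its own for each gene) of 6 serpins in each array of the 4 groups. Points are arrays 1 to 3 from left to right, bars are the group mean and SD, and the dotted line is the limit for testing at 7.31. Serpina3n was highest in the wild-type knockouts, between 13.08 and 13.30, and Serpinb8 was higher in both mutant groups than in both wild-type groups.

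Serpinb1a, an inhibitor of neutrophil elastase and cathepsin G, passed the test in the wild-type knockouts only. Its log2 level was 8.0, 8.13 and 7.79 in wild-type controls and 8.13, 8.52 and 8.39 in wild-type knockouts, where the lowest knockout all but met the highest control, and the rise was 0.37 ± 0.11 (limma adjusted p = 0.0382). In the mutant the difference was 0.10 ± 0.11, and the test of the difference between genotypes gave -0.27 ± 0.16 (adjusted p = 0.415). The wild-type call ended in 10 of 22 alternatives, among them leaving out wild-type control 1 or 3, wild-type knockout 2 or 3 or mutant control 2, with adjusted p-values of up to 0.136. Serpind1, heparin cofactor II, an inhibitor of thrombin made mainly in liver, rose by 0.16 ± 0.05 in the wild-type (adjusted p = 0.049), from 7.40, 7.36 and 7.35 to 7.50, 7.53 and 7.56. That change is small, lies just above the limit for testing and lost its call in 18 of 22 alternatives, without any 1 of the 6 wild-type arrays, mutant control 3 or any mutant knockout among them, with adjusted p-values of up to 0.146.

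In the Fbn1 mutant, 5 of the 18 genes rose in the knockout and 1 fell, while 13.4% of all genes tested passed. The arrays did not overlap for 10 of the 18, against 35.9% of all genes. Serpina3n, Serpinb9 and Serpini1 were called as described, and Serpina10 and Serpina11 were called besides. The 5 include Serpinb9b, whose controls lay under the limit for testing here too, so it was tested only through its high knockouts. Serpinb9b is also among the 10 that did not overlap. The median of the 18 was 0.14 against 0.03 over all genes tested, and over all 49 it was 0.10 against 0.05. Serpina10, the protein Z-dependent inhibitor of clotting factor X, read 7.50, 7.40 and 7.33 in mutant controls and 7.62, 7.64 and 7.64 in mutant knockouts, a rise of 0.23 ± 0.05 (limma adjusted p = 0.0179). Those mutant controls also lay under the wild-type controls, at 7.61, 7.60 and 7.69, by 0.23 ± 0.05 (adjusted p = 0.0288), so both calls share the same 3 low arrays. In the wild-type the knockout arrays of Serpina10 read 7.62, 7.70 and 7.58, and the test of the difference between the knockout effects gave 0.23 ± 0.08 (adjusted p = 0.165). The knockout call ended in several alternatives (adjusted p up to 0.0991), among them leaving out mutant control 2 or 3 or mutant knockout 2. The other call also ended in several (up to 0.111), among them leaving out any 1 wild-type control or mutant control 2 or 3. Serpina11 rose by 0.26 ± 0.08 (adjusted p = 0.0481), from 7.70, 7.39 and 7.58 to 7.71, 7.86 and 7.87, and lost the call in 17 of 22 alternatives, among them leaving out wild-type control 2 or 3, any wild-type knockout, mutant control 2 or 3 or any mutant knockout, with adjusted p-values of up to 0.181.

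The activators themselves passed in none of the 5 comparisons. Plat, the target of neuroserpin, read 10.93, 11.19 and 10.90 in wild-type controls and 10.66, 10.89 and 10.83 in wild-type knockouts, which just miss each other. In the mutant it read 11.11, 11.03 and 10.85 in controls and 10.82, 10.89 and 10.71 in knockouts, where the groups overlap. The differences were -0.21 (95% confidence interval -0.41 to -0.01, limma adjusted p = 0.133) and -0.19 (-0.39 to 0.01, adjusted p = 0.174), so a loss of up to 0.41 lies within the interval. With weights for each array the wild-type difference was -0.28 and passed (adjusted p = 0.0385).

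Plau, which encodes urokinase, read 7.90, 8.09 and 8.46 in wild-type controls and 8.36, 8.25 and 8.58 in wild-type knockouts, with wild-type control 3 standing above the other controls. In the mutant the values were 8.23, 8.50 and 8.26 in controls and 8.41, 8.46 and 8.53 in knockouts, which overlap. The differences were 0.25 (95% confidence interval -0.02 to 0.52, limma adjusted p = 0.193) and 0.14 (-0.14 to 0.41, adjusted p = 0.478). Without wild-type control 3 the wild-type difference was 0.41 and passed (adjusted p = 0.0223).

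Plaur, the urokinase receptor, differed little between knockouts and controls, by 0.03 in both genotypes, with 95% confidence intervals from -0.20 to 0.26. Its levels were 8.98, 9.11 and 9.37 in wild-type controls, while wild-type knockouts had 9.09, 9.21 and 9.24, and the remaining arrays 9.51, 9.58 and 9.24 in mutant controls and 9.60, 9.43 and 9.39 in mutant knockouts. The mutant knockouts lay above the wild-type knockouts without overlap, and mutant control 3 lay within the range of the wild-type controls. The mutant was higher by 0.29 ± 0.11 among controls (limma adjusted p = 0.121) and by 0.29 ± 0.11 among knockouts (adjusted p = 0.135), neither of which passed. The difference among controls was 0.40 and passed without wild-type control 3 (adjusted p = 0.049), and was 0.39 and passed without mutant control 3 (0.0475). With array weights both passed, at 0.36 among controls (adjusted p = 0.0422) and 0.35 among knockouts (0.0353).

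**Figure D3:**
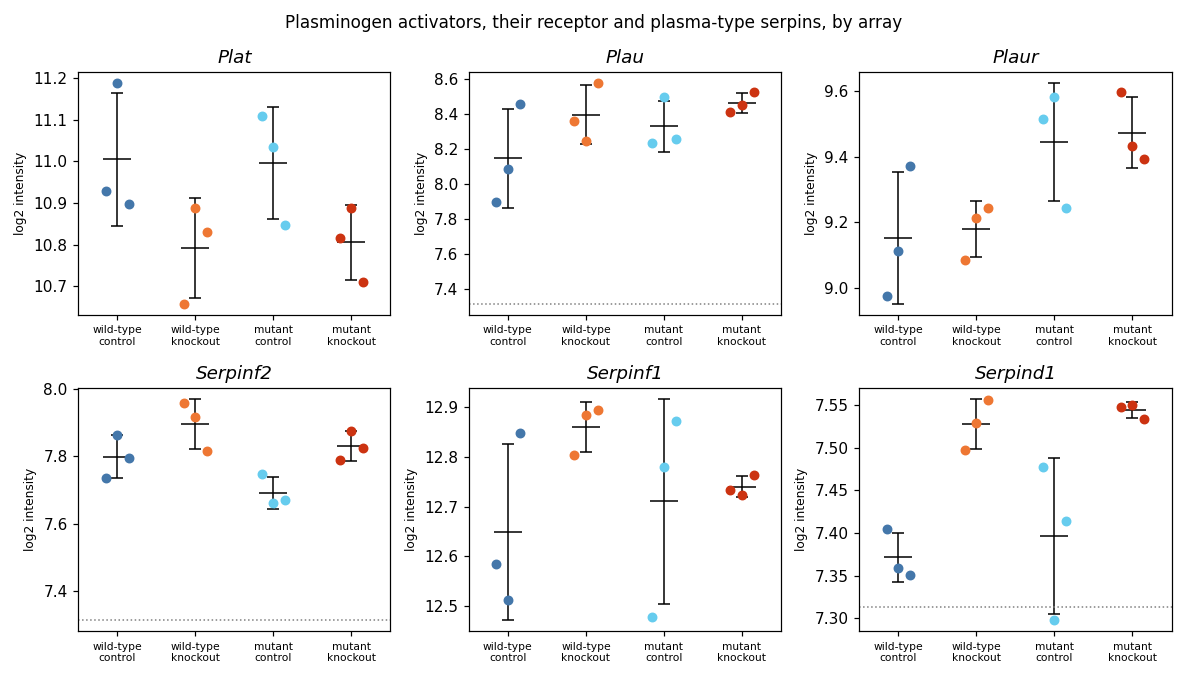
Log2 intensity (vertical axes, a scale of its own for each gene) of the activator genes Plat and Plau, the receptor gene Plaur and the serpins Serpinf2, Serpinf1 and Serpind1 in each array of the 4 groups. Points are arrays 1 to 3 from left to right, bars are the group mean and SD, and the dotted line is the limit for testing at 7.31. Plaur lay at 9.39 or higher in the mutant knockouts and at 9.24 or lower in the wild-type knockouts.

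The plasma-type serpins gave small differences. Serpinf2, alpha-2-antiplasmin, the main inhibitor of plasmin, read 7.74, 7.86 and 7.80 in wild-type controls, while wild-type knockouts had 7.96, 7.92 and 7.82, and the remaining arrays 7.75, 7.66 and 7.67 in mutant controls and 7.79, 7.88 and 7.83 in mutant knockouts. The knockout differences were 0.10 and 0.14 (limma adjusted p = 0.241 and 0.105). Serpinf1, pigment epithelium-derived factor, a serpin that inhibits no protease, differed by 0.21 (adjusted p = 0.16) with wild-type and 0.03 (0.856) with mutant Fbn1, and its wild-type and mutant controls were spread, between 12.51 and 12.85 and between 12.48 and 12.87. Without wild-type control 3, the highest of its group, the wild-type difference was 0.31 and passed (adjusted p = 0.0426). Serpinc1, antithrombin, differed by -0.06 and 0.18 in the same order (adjusted p = 0.684 and 0.18), and its mutant controls, at 7.35, 7.20 and 7.21, averaged under the limit for testing. Serpind1 in the mutant differed by 0.15 (adjusted p = 0.072), with no overlap between controls, at 7.48, 7.30 and 7.41, and knockouts, at 7.55, 7.55 and 7.53. Serpine3 differed by 0.02 and 0.19 (adjusted p = 0.863 and 0.0939). Without mutant control 1 the mutant differences of Serpind1 and Serpine3 were 0.19 and 0.26 and passed (adjusted p = 0.0486 and 0.0408).

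For the Fbn1 mutation itself, 1 of the 18 genes was higher and 1 lower in mutant than in wild-type controls, while 6.49% of all genes tested passed, 3.17% upward and 3.33% downward. Among knockouts 1 was higher and 2 were lower, while 5.96% of all genes passed, 2.8% upward and 3.16% downward. Genotypes did not overlap for 3 of the 18 among controls and for 6 among knockouts, against 28.1% and 26.3% of all genes. With each array centred on its median the only 2 calls among knockouts were the lower ones, as 649 of 920 calls over all genes then were. The medians of the 18 were 0.04 and -0.00345, against -0.02 and 0.01 over all genes tested. Serpinb8, an intracellular serpin known to inhibit furin, was the only one of the 18 called in both. It read 9.60, 9.73 and 9.55 in wild-type controls and 9.89, 9.98 and 9.97 in mutant controls, and 9.67, 9.57 and 9.87 in wild-type knockouts and 10.07, 9.93 and 10.15 in mutant knockouts. Every mutant array lay above every wild-type array, 6 against 6. The mutant was higher by 0.32 ± 0.08 among controls (limma adjusted p = 0.0358) and by 0.35 ± 0.08 among knockouts (adjusted p = 0.0245), and the knockout differences of Serpinb8 were 0.07 and 0.10, neither of which passed. The call among controls ended in several alternatives (adjusted p up to 0.125), among them leaving out wild-type control 1 or 3, any mutant control or wild-type knockout 1. The call among knockouts also ended in several (up to 0.108). Among them were leaving out wild-type knockout 1 or 2 or mutant knockout 1 or 3 (up to 0.0893), and centring each array on its median (0.0511).

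**Figure D4:**
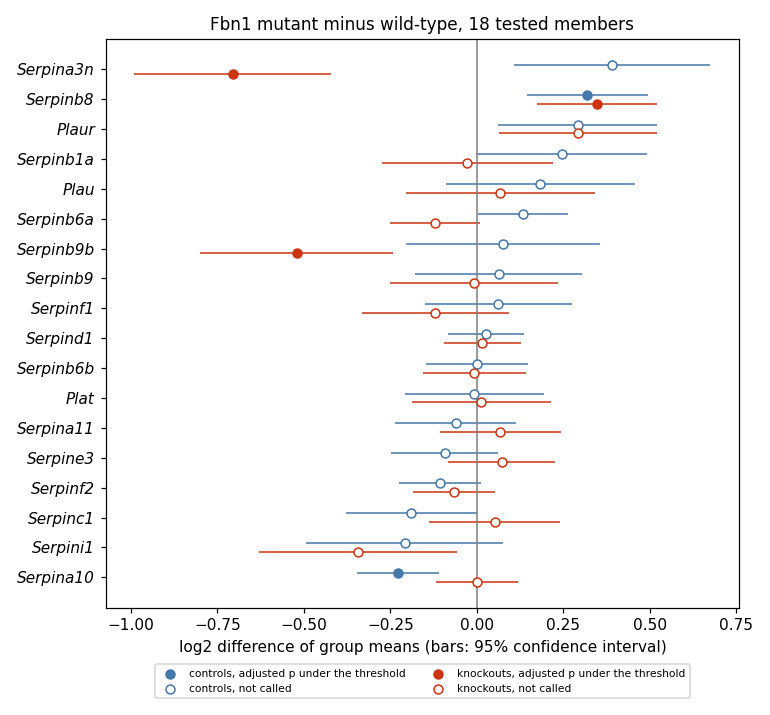
Log2 differences of Fbn1 mutant minus wild-type (horizontal axis) for the 18 tested genes (vertical axis), among controls and among knockouts. Points are limma estimates from 3 arrays per group, bars are 95% confidence intervals, and filled points have an adjusted p under 0.05. Serpinb8 lay at 0.32 and 0.35, and Serpina3n at 0.39 among controls and -0.71 among knockouts.

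Serpina3n also differed with the mutation among knockouts. There the mutant was lower by 0.71 ± 0.13 (limma adjusted p = 0.00771), with no overlap. Among controls it was higher by 0.39 ± 0.13, which did not pass (adjusted p = 0.095). Without mutant control 2, the array at the level of the wild-type controls, that difference was 0.57 and passed (adjusted p = 0.0182). These differences share their arrays with the knockout comparisons, and the difference between them is the same -1.10 given there.

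Serpinb6a and Serpinb6b, copies of an intracellular inhibitor of cathepsin G, passed in no comparison. Serpinb6a read 10.94, 10.87 and 10.71 in wild-type controls, while wild-type knockouts had 11.02, 11.01 and 11.03, and the remaining arrays 11.0025, 10.96 and 10.95 in mutant controls and 10.82, 10.93 and 10.95 in mutant knockouts. The knockout differences were 0.18 ± 0.06 in the wild-type (limma adjusted p = 0.0539) and -0.07 ± 0.06 in the mutant (0.419). The wild-type difference passed in 4 of 23 alternatives, and the test of the difference between genotypes gave -0.25 ± 0.08 (adjusted p = 0.164). Serpinb6b differed by 0.12 ± 0.07 in both genotypes (adjusted p = 0.237 and 0.255).

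Among the 31 dim genes most values lay close together across the groups. When all 19938 genes were tested without a limit on the level, 2 of the 31 passed in the wild-type knockout comparison, 1 among knockouts for the Fbn1 mutation and 0 in the other 3, against 13.5% and 3.92% of all genes in the comparisons with a call. The share of all genes was 9.83% in the mutant knockout comparison, 4.27% among controls and 0.908% for the difference of effects. Serpina5, the protein C inhibitor, was one of them. It read 6.62, 6.51 and 6.37 in wild-type controls and 6.96, 7.13 and 7.47 in wild-type knockouts, a rise of 0.69 ± 0.11 (limma adjusted p = 0.00137). In the mutant it read 6.69, 6.51 and 6.47 in controls and 6.61, 6.76 and 6.85 in knockouts, which overlap, and among knockouts the mutant was lower by 0.44 ± 0.11 (adjusted p = 0.0482). Serpina6, which binds corticosteroids in plasma, rose by 0.18 ± 0.05 in the wild-type (adjusted p = 0.0422). Serpinb2, plasminogen activator inhibitor type 2, lay between 6.37 and 6.63 in all 12 arrays. Over the 5 comparisons the differences of the 31 genes lay between -0.50 and 0.69.

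Other genes of the plasminogen and clotting system moved in both directions. Of 33 tested, 7 rose and 4 fell in the wild-type knockouts, with a median of 0.06 against -0.01 over all genes, where 9.17% of all genes rose and 9.66% fell. S100a10, a plasminogen receptor subunit that pairs with annexin A2, rose by 0.47 ± 0.06 (limma adjusted p = 0.000357), as did St14, the protease matriptase, by 0.47 ± 0.06. Vldlr, a receptor that takes up complexes of serpin and protease, fell by 0.57 ± 0.06, and Itgb3, the beta-3 integrin subunit, fell by 0.82 ± 0.10. In the mutant knockouts 3 rose and 6 fell (7.66% and 5.77% of all genes), with a median of 0.04 against 0.03. With each array centred on its median, 660 of all genes rose there and 1373 fell, in place of 1145 and 863. There Itgb3 fell by 0.60 ± 0.10, and the growth factor genes Pdgfd and Pdgfc, whose products are activated by such proteases, fell by 0.33 ± 0.06 and 0.41 ± 0.09. Among the 33, Mmp2, a metalloprotease, was the one whose 2 knockout effects differed by the test (-0.60 ± 0.10, adjusted p = 0.00974). For the Fbn1 mutation 2 rose and 1 fell among controls, and 2 rose and 3 fell among knockouts. Of all genes 3.17% rose and 3.33% fell among controls, and 2.8% and 3.16% among knockouts.

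Of the proteases known to be held by serpins, 11 of 18 with a probe set were tested. The cysteine protease cathepsin S, Ctss, rose by 1.35 ± 0.09 in the wild-type knockouts and by 0.45 ± 0.09 in the mutant knockouts, and the difference of -0.90 ± 0.13 passed (limma adjusted p = 0.00581). Cathepsin K, Ctsk, rose by 0.62 ± 0.05 in the wild-type and fell by 0.19 ± 0.05 in the mutant, a difference of -0.81 ± 0.07 (adjusted p = 0.000388). The secreted serine protease Htra1 fell by 0.56 ± 0.07 in the mutant and differed by 0.000511 ± 0.07 in the wild-type, a difference of -0.56 ± 0.10 (adjusted p = 0.0157). The serine protease Prss12, neurotrypsin, rose by 0.43 ± 0.09 and 0.29 ± 0.09. Counts were 3 risen and 0 fallen in the wild-type and 2 and 2 in the mutant. The shares of all genes were 9.17% risen and 9.66% fallen in the wild-type and 7.66% and 5.77% in the mutant. Medians were 0.09 and 0.02, against -0.01 and 0.03 over all genes.

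The acute-phase and interleukin 6 response list, to which Serpina3n itself was not added, had 7 of 16 tested genes risen and 0 fallen in the wild-type knockouts, with a median of 0.34. Timp1, an inhibitor of metalloproteases, rose by 1.54 ± 0.13, Lbp, which binds bacterial lipopolysaccharide, by 1.00 ± 0.12, Bcl3 by 0.56 ± 0.07 and the oncostatin M receptor Osmr by 0.54 ± 0.09. In the mutant knockouts 1 of 16 rose, Bcl3 by 0.34 ± 0.07, and the median was 0.15. Of SMAD-induced TGF-beta targets, 3 of 22 rose and 5 fell in the wild-type and 0 rose and 9 fell in the mutant, with medians of 0.07 and -0.16 against -0.01 and 0.03 over all genes. The shares of all genes were 9.17% risen and 9.66% fallen in the wild-type and 7.66% and 5.77% in the mutant.

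Markers of other cells also differed between knockouts and controls. All 15 macrophage markers rose in the wild-type knockouts and 7 of 15 in the mutant knockouts, by medians of 0.98 and 0.35. Their summed intensity was 13398 to 16031 for the wild-type controls and 26919 to 29967 for the wild-type knockouts. Mutant controls had sums of 14537 to 18884, and mutant knockouts of 21643 to 21846. Among the tested genes Serpina3n, Serpinb9, Serpinb1a and Serpinf1 followed the same order of group means. The wild-type and mutant knockouts were nearly equal for Serpinb9, at 10.61 and 10.60, and for Serpinb1a, at 8.34 and 8.32. Serpinf1 was called in no comparison. The share of all genes with this order was not counted. Serpinb9b, tested only through its high knockout groups, had that order too. The part of macrophages in these results was not tested. The sum of 9 liver-type genes was also higher in knockouts, at 6263 to 7429 over 4650 to 4843 with wild-type Fbn1 and at 5274 to 6684 over 3551 to 5186 with mutant Fbn1. In the wild-type 2 of 7 tested genes of that list rose, with a median of 0.01 against -0.01 over all genes, and in the mutant 1 of 7, with a median of 0.17 against 0.03. The part of these in the small rises of Serpina10, Serpina11 and Serpind1 was not tested. Endothelial markers had 6 of 11 risen and 1 fallen in each genotype. Fibroblast markers had 6 of 9 risen in the wild-type and 2 of 9 in the mutant, with medians of 0.34 and -0.08. Cardiac muscle markers had 2 of 10 risen and 1 fallen in each genotype, with medians of 0.29 and 0.31. Smooth muscle markers, whose sum varied little, had 1 of 9 risen and 2 fallen in the wild-type and 2 risen and 0 fallen in the mutant. Their medians were -0.003 and 0.03. Of neutrophil markers 7 of 10, of lymphocyte markers 7 of 11 and of mast cell markers 5 of 9 lay under the limit for testing. All 8 tested cell division genes rose in the wild-type knockouts and 2 of 8 in the mutant knockouts. Beside these counts, 9.17% of all genes rose and 9.66% fell in the wild-type knockouts, and 7.66% and 5.77% in the mutant knockouts.

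Immediate early genes, which respond within minutes to handling and stimulation, differed between arrays of 1 group and were also higher in knockouts. Of 31 tested, 3 rose and 0 fell in the wild-type knockouts, and 7 rose and 0 fell in the mutant knockouts. Of all genes 9.17% rose and 9.66% fell in the wild-type, and 7.66% and 5.77% in the mutant. Medians were 0.27 and 0.31, against -0.01 and 0.03 over all genes. Their mean centred log2 level was 0.62, -0.09 and 0.32 in mutant knockouts 1 to 3. It was -0.29, -0.26 and -0.08 in mutant controls, 0.11, 0.37 and -0.15 in wild-type knockouts and -0.21, 0.03 and -0.37 in wild-type controls. With this score as a covariate the rise of Serpina3n in the mutant was 0.39 and did not pass (limma adjusted p = 0.145), while its rise in the wild-type and the difference between genotypes still passed. In that fit 690 of all 14944 genes passed in the mutant knockout comparison, in place of 2008. Because the score itself went with the knockout groups, this fit cannot separate the score from the knockout. Mutant control 3 and mutant knockout 1 had the highest level of Ucp1, a brown fat gene, at 8.58 and 8.21. Without those 2 arrays 3 of the 18 genes passed in the mutant knockout comparison, and Serpinb9, Serpina10 and Serpina11 did not. Their differences without the 2 arrays were 0.34, 0.19 and 0.33, against 0.39, 0.23 and 0.26 with all arrays.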

How the data were processed

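RNA of 12 ascending aorta samples was labelled with biotin for Affymetrix whole-transcript arrays, per the labels' protocols. The table of 35556 probe sets holds linear intensity that the authors obtained by RMA in Partek 6.4, per the submitters' processing notes. The genome build is not given in the sources used here. Analysis began with the log2 of the deposited intensity. There were 0 columns of other samples and 0 identical pairs of arrays. Of 21789 probe sets annotated to 1 symbol, 21698 matched RefSeq by Entrez ID. Matched or not, probe sets kept their annotated symbol, and the brightest on average stood for its gene. Genes averaging under the 25th percentile of those probe sets (log2 7.31, intensity 159) were left out, and 14944 were tested.

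The model had a term for each group and used every array (limma 3.58.1, lmFit and eBayes, no trend, R 4.3.3), which left 8 residual degrees of freedom beside a prior of 4.54. All p-values are two-sided and received the Benjamini-Hochberg adjustment over the 14944 genes, with calls under 0.05. The fit was tested on simulated data with independent noise in each gene and changes larger than many of those called here. That test therefore says nothing of smaller changes or of effects shared by the genes of an array. The 49 genes, the lists and the alternatives were chosen with earlier results of these data known. The text names the activators, their receptor, Serpinf1, Serpinf2, Serpinb2, Serpina3n, Serpinc1, Serpind1, every other of the 49 past the threshold, and up to 4 genes of smallest p per list and comparison. Serpina5, Serpina6, Serpinb6a, Serpinb6b, Serpine3, Ctsk in the mutant, and Ucp1 were added after their values were seen. Alternatives were another filter or none, quantile normalization, median centring, the mean over a gene's probe sets, a variance trend, weights per array, smaller sets of arrays, a replicate block and an immediate early score. The number of arrays limits the precision.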

Additional observations from a re-analysis of the deposited data

Results flagged for a closer look

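The rise of Serpina3n in knockouts differed between the Fbn1 genotypes. The log2 difference between the knockout effects, mutant minus wild-type, was -1.10 with a standard error of 0.19 (limma adjusted p = 0.0126). In both genotypes all 3 knockout arrays lay above all 3 controls. The call held under all 22 alternatives that give this difference, with values between -1.27 and -0.95 and adjusted p-values of at most 0.042.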

How the results depend on the processing

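Of the 18 calls of single members, 7 held under each alternative run: those of Serpini1 in both knockout comparisons, of Serpina3n in the wild-type knockouts, among knockouts for the mutation and in the difference of effects, and of Serpinb9b in both knockout comparisons. The last 2 say nothing of stability, since Serpinb9b was tested only through its high groups. No call changed its direction under any alternative. The number of members called fell from 6 to 3 in the mutant knockout comparison when the filter was set at the median, when the immediate early score was a covariate, and without mutant control 3 and mutant knockout 1. Among controls it fell from 2 to 1 under that filter, when the other groups were left out of the fit, and without those 2 arrays. Among knockouts it rose from 3 to 5 with array weights and fell to 1 when the other groups were left out and without those 2 arrays. The filter at the median leaves fewer genes to test and the smaller fits use fewer arrays; for the others the cause was not tested. Leaving out each array in turn gave 3 to 6 members in the wild-type knockout comparison, 3 to 7 in the mutant, 0 to 2 among controls, 1 to 3 among knockouts and 1 for the difference. The count of 3 in the wild-type came without wild-type knockout 3, those of 3 in the mutant without mutant control 2 or 3 or mutant knockout 2, that of 0 among controls without wild-type control 1, and those of 1 among knockouts without wild-type knockout 2 or mutant knockout 1 or 3. Among controls 1 was called without wild-type control 2 or 3, wild-type knockout 1 or any mutant control. In some of these fits both original calls, of Serpina10 and Serpinb8, were lost and another gene passed. That gene was Plaur without wild-type control 3, without mutant control 3, and without mutant control 3 and mutant knockout 1 together. It was Serpina3n without mutant control 2. With the replicate block, the number in the titles, the counts were 5, 4, 2, 2 and 1 in the order of the comparisons. The labels do not say that a number pairs arrays, same-numbered arrays correlated over 0.1 in 3 of 18 pairs, and 6 of 12 arrays correlated best with one of their own number. Quantile normalization and median centring moved the median of all genes by less than 0.1 in each comparison. The largest move was in the mutant knockout comparison with centring, from 0.03 to -0.01. Under both, Serpinb1a and Serpind1 in the wild-type and Serpinb9 and Serpina11 in the mutant lost their knockout calls. Probe sets near the limit for testing have little room to fall, and no detection call was used.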

Other observations

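Serpini1 lies beside Pdcd10 in the RefSeq order of genes, and Pdcd10 did not pass in either knockout comparison, at -0.03 ± 0.08 in the wild-type (limma adjusted p = 0.816) and -0.19 ± 0.08 in the mutant (adjusted p = 0.113). Golim4, its neighbour on the other side, differed by -0.01 ± 0.05 and 0.03 ± 0.05. Both were looked at after the values of Serpini1 were seen.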
